A study of Rattus norvegicus with 30 samples.

Results

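Mitochondria carry ribosomes of their own, the mitoribosomes, and the genes of their proteins have symbols beginning with Mrpl (large subunit) or Mrps (small subunit). All genes whose symbol in the platform's annotation began with Mrpl or Mrps followed by a digit were taken. There were 69 such symbols on 73 probe sets. Each gene was read on its brightest probe set over the 30 arrays, and 68 genes were tested among 11675 genes in all. Mrpl20 shared its probe set with another gene and was not tested. Mrpl9, Mrpl11, Mrpl24, Mrpl28, Mrpl33, Mrpl39 and Mrps6 were not analysed here. This rule uses no measured value, but the set was proposed with earlier results of these data known.

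The mitoribosome translates the few messenger RNAs encoded by mitochondrial DNA, which specify subunits of the respiratory chain and of the ATP synthase. All of its proteins are encoded in the nucleus, made on cytosolic ribosomes and imported. Some descend from proteins of the bacterial ribosome and others are found only in mitochondria. Microglia, the resident macrophages of the brain, divide and change their metabolism after a stroke.

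The RNA came from microglia of male rats aged 3 or 12 months, after a transient monofilament occlusion of the middle cerebral artery or a sham operation. The sample characteristics call the strain Wistar Kyoto, whereas the protocols name spontaneously hypertensive rats. At each age there were 5 groups of 3 arrays: sham, and the contralateral and the ipsilateral (injured) hemisphere at day 3 and at day 14. The study asked how microglial expression changes between these days and whether the pattern differs between the ages. The ipsilateral and contralateral samples of 1 replicate number came from 1 animal. For sham the labels do not say that replicates were separate animals, so p-values there measure only the spread between samples. How the cells were purified and which hemisphere gave the sham samples are not given in the sources used here.

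The 12 measured microglial markers averaged 9.34 to 10.24 on every array, on the log2 scale of the deposited signals, against array 30th percentiles of 4.07 to 4.35. The averages of the astrocyte and neuron markers lay at 4.50 to 5.42, and those of T and natural killer cell markers at 4.47 to 4.87. Averages of oligodendrocyte markers lay at 5.23 to 6.06, of B cell markers at 5.35 to 6.18 and of endothelial markers at 5.85 to 6.39. Stroke arrays of 3-month rats had a narrower spread of values (standard deviation over probe sets 1.79 to 1.93) than the others (1.94 to 2.05), which touches comparisons with sham at 3 months. The spread also differed between some hemispheres, which touches hemisphere comparisons. At 12 months and day 3 it was 2.04 to 2.05 on ipsilateral and 1.96 to 2.01 on contralateral arrays. At 3 months and day 14 it was 1.90 to 1.93 and 1.85 to 1.87. At the remaining ages and days the hemispheres overlapped in spread. The sample codes of the 3-month stroke arrays also carry other numbers than the 3-month sham samples, the number differs between the days, and all 12-month samples carry a further one. Comparisons with sham or between days at 3 months, and of levels between the ages (sham included), therefore cannot be told apart from that number. Both hemispheres of an age and day share 1 number. Adjusted p-values are limma's with Benjamini-Hochberg adjustment over the 11675 genes, genes with an adjusted p under 0.05 are termed called, and changes are differences of group means in log2 units ± standard error (n = 3 arrays a group).

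Promoters of 54 of the 68 genes were in the RefSeq table of the GRCr8 assembly, which gives 300 bases around each annotated start. Those of Mrpl22, Mrpl30 and Mrps15 are shown because these genes were higher in the injured hemisphere in all 4 hemisphere comparisons, and that of Mrpl46 because it faces another mitoribosomal gene. Capitals mark matches, on either strand, to the 5 motifs searched.
Mrpl22 (chr10:42845660-42845959, plus strand): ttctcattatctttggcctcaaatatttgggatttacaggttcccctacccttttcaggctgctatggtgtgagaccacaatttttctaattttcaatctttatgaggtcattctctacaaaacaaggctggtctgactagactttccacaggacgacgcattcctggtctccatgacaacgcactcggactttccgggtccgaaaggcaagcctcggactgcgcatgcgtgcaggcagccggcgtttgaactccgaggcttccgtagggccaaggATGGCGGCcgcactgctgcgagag
Mrpl30 (chr9:47620977-47621276, plus strand): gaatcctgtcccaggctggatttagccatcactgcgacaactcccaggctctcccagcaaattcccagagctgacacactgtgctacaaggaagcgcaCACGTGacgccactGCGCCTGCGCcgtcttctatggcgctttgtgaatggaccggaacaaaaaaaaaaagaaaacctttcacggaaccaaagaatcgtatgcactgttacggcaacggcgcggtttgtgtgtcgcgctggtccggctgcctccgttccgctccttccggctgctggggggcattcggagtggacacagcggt
Mrps15 (chr5:143605891-143606190, plus strand): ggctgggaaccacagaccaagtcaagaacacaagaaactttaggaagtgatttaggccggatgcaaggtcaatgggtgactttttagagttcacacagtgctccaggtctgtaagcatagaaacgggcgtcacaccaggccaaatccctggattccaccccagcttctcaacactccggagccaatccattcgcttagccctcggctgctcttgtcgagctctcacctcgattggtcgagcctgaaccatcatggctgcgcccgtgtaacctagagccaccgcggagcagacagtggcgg
Mrpl46 (chr1:142116981-142117280, minus strand): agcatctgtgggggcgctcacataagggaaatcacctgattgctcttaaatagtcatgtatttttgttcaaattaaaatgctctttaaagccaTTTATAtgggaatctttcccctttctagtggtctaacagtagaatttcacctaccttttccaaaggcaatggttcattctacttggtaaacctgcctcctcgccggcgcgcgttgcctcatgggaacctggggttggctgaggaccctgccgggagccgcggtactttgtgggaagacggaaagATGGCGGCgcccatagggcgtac

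Of 5 motifs searched on both strands, the YY1 motif ATGGCGGC was in 22.2% of the 54 members' promoters, 5.1% of those of 9663 tested genes and 3.6% of 19005 protein-coding genes. It began 26 bases after the annotated start in Mrpl22 and 27 bases after it in Mrpl46. The NRF1 motif was in 14.8%, 8.6% and 6.0% of the 3 sets, and the ETS motif CCGGAAGT in 14.8%, 7.1% and 5.0%. The E-box CACGTG was in 11.1%, 8.9% and 7.3%, and TATAAA in 14.8%, 8.6% and 13.1%. Mrpl30 held both an NRF1 match and an E-box, Mrpl46 held TATAAA on the other strand besides its YY1 match, and Mrps15 held none of the 5 motifs. A match is a description of letters, not of binding. In 17 of the 54 genes (31.5%) another gene started within 1000 bases upstream on the opposite strand, against 9.5% of the tested and 6.9% of all genes. Mrpl46 and Mrps11 were such a pair, with starts 234 bases apart.

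In the values as deposited, between 16 and 46 of the 68 mitoribosomal genes rose in the injured hemisphere, depending on age and day. There were 16 called in none of the 4 comparisons. Against the contralateral hemisphere, 28 of the 68 were called higher at 3 months and day 3, where 11.5% of all tested genes were called higher. At 3 months and day 14 it was again 28 (13.2% of all genes), at 12 months and day 3 it was 46 (18.7%), and at 12 months and day 14 it was 16 (10.9%). As deposited, none was called lower in these comparisons, while 8.95%, 7.09%, 10% and 5.94% of all genes were. The numbers of members lower at an unadjusted p under 0.05 were 2, 0, 0 and 2. Shares of all genes at an unadjusted p under 0.05 are not given, here or below. After quantile normalization of the 30 arrays together, 30, 26, 38 and 11 members were called higher, in the same order of comparisons. Shares of all genes after this rescaling are not given here. Mrpl46 was then called lower at 3 months and day 3 (-0.29, adjusted p = 0.0333) and Mrps14 at 12 months and day 14 (-0.30, adjusted p = 0.0205).

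The median change over the 68 genes was 0.25, 0.28, 0.46 and 0.17 log2 units in that order, and that over all tested genes -0.01 in all 4. The arrays of the hemispheres did not overlap, with the injured side higher, for 29, 32, 53 and 25 members, and with the injured side lower for 3, 0, 1 and 3. Over all genes 15.5%, 17.4%, 25.6% and 17.7% were higher and 14.6%, 12.4%, 20.3% and 13.7% lower without overlap. Within animals, 40, 42, 59 and 35 members were higher on the injured side in 3 of 3, and 7, 1, 1 and 7 were lower in 3 of 3. Over all genes 23%, 24.2%, 30.7% and 24.1% were higher in 3 of 3 and 24.3%, 21.5%, 28.8% and 22.4% lower. Without ipsilateral replicate 1, the count at 3 months and day 14 was 18. At 12 months and day 14 it was 9 without ipsilateral replicate 1, 10 without ipsilateral replicate 3 and 10 without contralateral replicate 1.

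**Figure D1:**
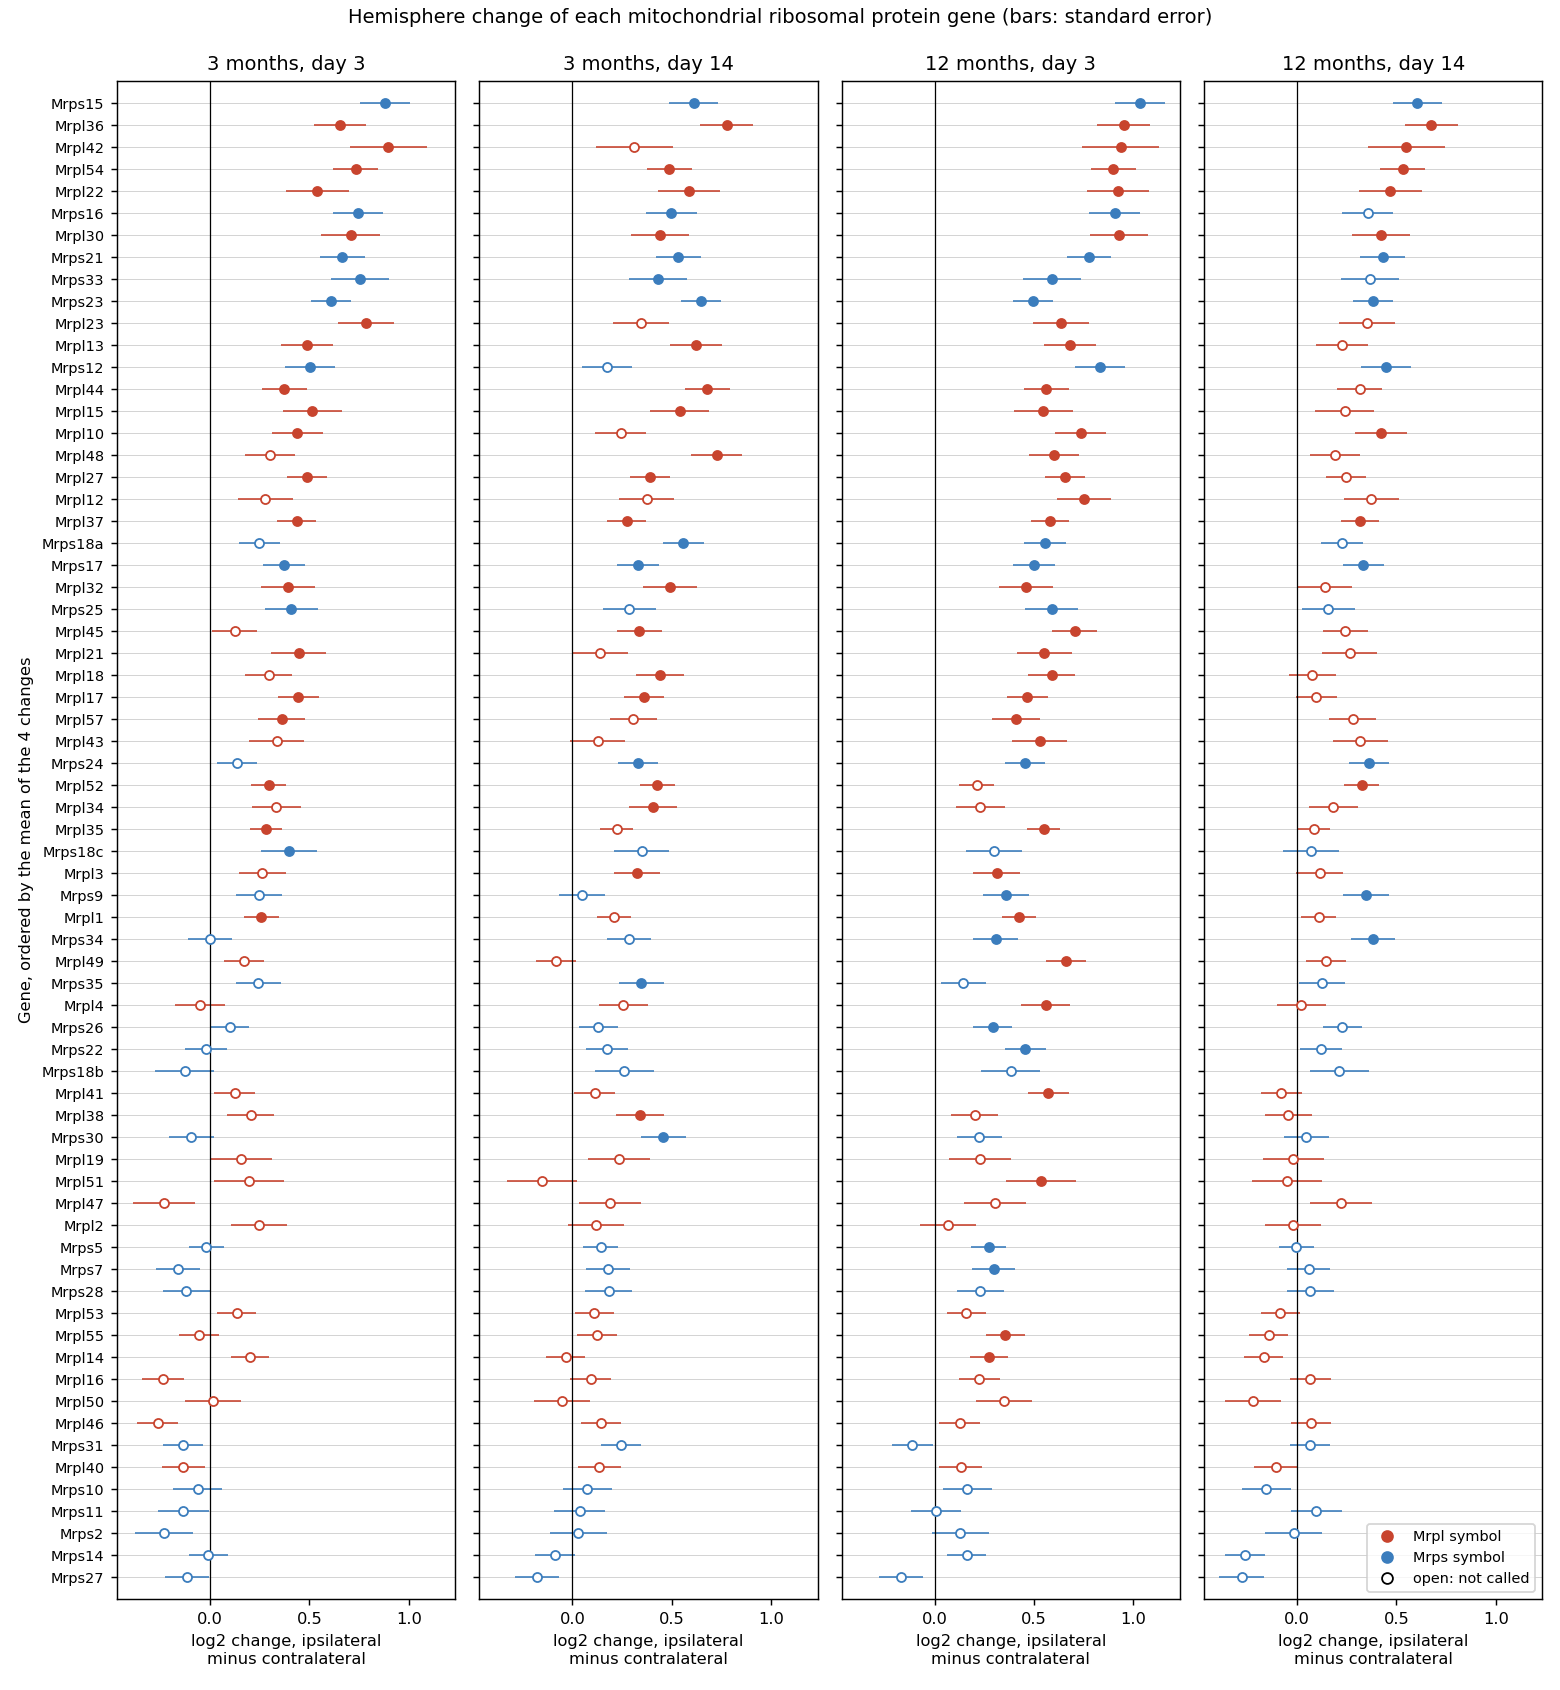
Change of each of the 68 genes between hemispheres (x axis, log2 units, ipsilateral minus contralateral, bars ± standard error, 3 arrays a group), ordered by the mean of the 4 changes. Filled points were called at an adjusted p under 0.05; all filled points lie to the right of 0, and Mrps15 and Mrpl36 head the order.

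Signals of cell type markers moved with the same contrast. The 12 measured monocyte and macrophage markers averaged 7.61 to 8.82 on the ipsilateral arrays of 3-month rats at day 3 and 6.33 to 6.50 on the contralateral ones, and 12 of 12 were called higher. They averaged 8.19 to 8.40 against 6.39 to 6.74 at 12 months and day 3, with 11 of 12 called higher. At day 14 they averaged 7.18 to 7.34 against 6.37 to 6.45 at 3 months and 6.93 to 7.45 against 6.48 to 6.63 at 12 months. Of 12 microglial markers, 8, 7, 9 and 7 were called lower and 1, 1, 0 and 1 higher. Of 21 cell cycle genes, 14, 0, 19 and 4 were called higher and 1, 1, 0 and 1 lower. Of 12 neutrophil markers, 4, 1, 1 and 0 were called higher and 0, 3, 0 and 1 lower. Their part in the mitoribosomal changes was not tested, and in these bulk samples a change in the share of a cell type and a change in RNA per cell cannot be told apart.

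The 9 genes called in all 4 comparisons were Mrpl22, Mrpl30, Mrpl36, Mrpl37, Mrpl54, Mrps15, Mrps17, Mrps21 and Mrps23. Another 13 were called in 3 comparisons, 13 in 2, 17 in 1 and 16 in none. Mrps15, a small-subunit protein that binds ribosomal RNA, changed the most on average. At 12 months and day 3 it read 6.18, 6.16 and 6.42 on the contralateral arrays and 7.21, 7.23 and 7.43 on the ipsilateral arrays. No arrays overlapped, and the rise was 1.03 ± 0.12 (2.05-fold, adjusted p = 1.73e-07). At 3 months and day 3 it read 5.49, 5.21 and 5.58 against 6.50, 6.12 and 6.30, a rise of 0.88 ± 0.12 (adjusted p = 3.84e-06). The rises at day 14 were smaller, at 0.61 ± 0.12 at 3 months (adjusted p = 0.000538) and 0.61 ± 0.12 at 12 months (adjusted p = 0.00063).

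Mrpl36, a very small protein of the large subunit with a bacterial counterpart, was higher on every ipsilateral array than on any contralateral array of the same age and day. At 3 months and day 14 its contralateral arrays read 7.19, 7.47 and 6.94 and its ipsilateral arrays 7.96, 8.10 and 7.87, a rise of 0.78 ± 0.13 (adjusted p = 6.04e-05). The arrays of 12 months and day 14 read 7.79, 7.80 and 7.89 against 8.54, 8.42 and 8.55, a rise of 0.68 ± 0.13 (adjusted p = 0.000365). These were the highest changes of any member at day 14. Its rises at day 3 were 0.65 ± 0.13 at 3 months (adjusted p = 0.000439) and 0.95 ± 0.13 at 12 months (adjusted p = 1.87e-06).

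Mrpl54, a large-subunit protein without a bacterial counterpart, likewise showed no overlap in any of the 4 comparisons. At 3 months and day 3 it read 6.42, 6.67 and 6.68 against 7.49, 7.04 and 7.45, a rise of 0.73 ± 0.11 (adjusted p = 1.35e-05). At 12 months and day 3 it read 6.93, 6.62 and 6.88 against 7.68, 7.75 and 7.70, a rise of 0.90 ± 0.11 (adjusted p = 3.48e-07). Its day-14 rises were 0.49 ± 0.11 and 0.53 ± 0.11 at 3 and 12 months (adjusted p = 0.00199 and 0.000896). Mrps21, a small-subunit protein with a bacterial homologue, rose by 0.67, 0.53, 0.78 and 0.43 in the order of 3 months days 3 and 14, then 12 months (adjusted p at most 0.00667). Mrps23, found only in mitochondria, rose by 0.61, 0.65, 0.49 and 0.38 (adjusted p at most 0.00706). Neither gene's arrays overlapped between the hemispheres in the 4 comparisons.

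Mrpl30, a large-subunit protein, rose by 0.71, 0.44, 0.93 and 0.42 in the same order, but at 12 months and day 14 its contralateral replicate 1 (6.75) lay above ipsilateral replicate 3 (6.61) and the adjusted p was 0.0449. Its 3 ipsilateral arrays at 3 months and day 14 all read 6.75. Mrps17 rose by 0.37, 0.33, 0.50 and 0.33, and Mrpl37 by 0.44, 0.27, 0.58 and 0.32, with no overlap in any comparison. Mrps17 has a bacterial homologue and Mrpl37 does not. The highest adjusted p of these 2 genes was 0.0437, for Mrpl37 at 3 months and day 14.

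**Figure D2:**
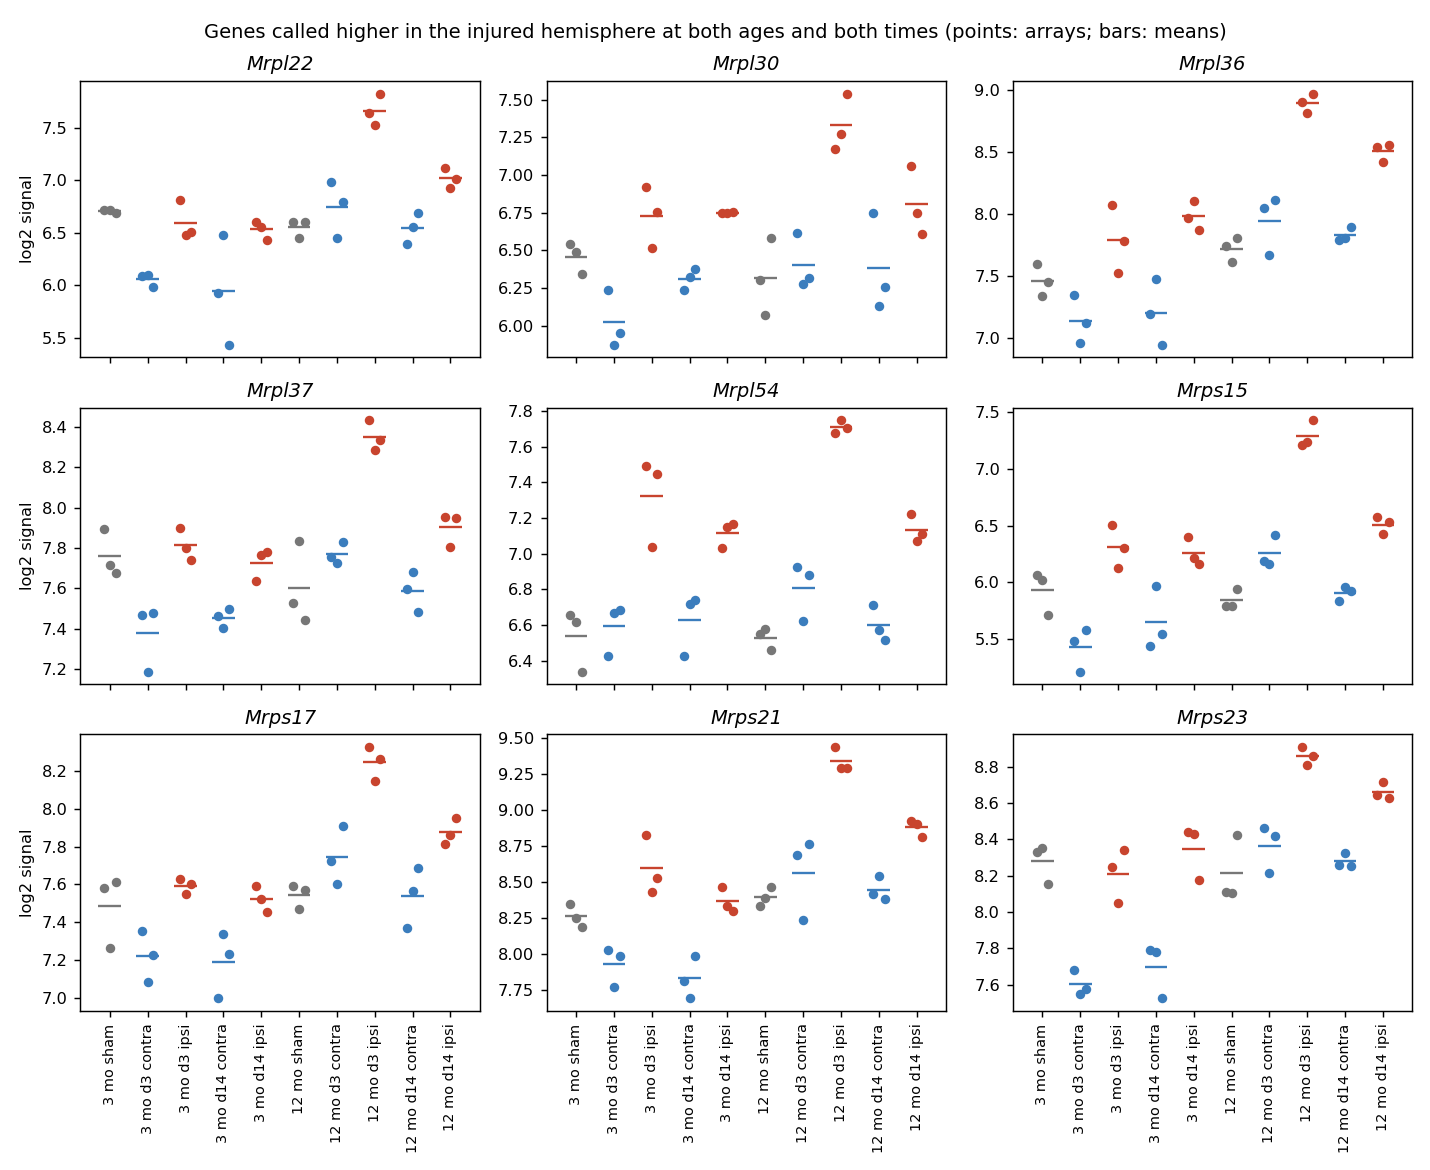
Log2 signal of the 9 genes called in all 4 hemisphere comparisons on each of the 30 arrays (points; bars are group means of 3 arrays; grey sham, blue contralateral, red ipsilateral; mo, months; d, day). The 12-month ipsilateral arrays at day 3 are the highest group for each gene.

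Other members had large rises in some of the 4 comparisons. Mrpl42, a mitochondria-specific protein of the large subunit, read 7.03, 7.34 and 7.03 on the contralateral and 8.23, 7.96 and 7.90 on the ipsilateral arrays at 3 months and day 3, a rise of 0.90 ± 0.19 (adjusted p = 0.000912). It rose by 0.94 ± 0.19 at 12 months and day 3 (adjusted p = 0.000391) and at day 14 by 0.55 ± 0.19 (adjusted p = 0.0496). At 3 months and day 14 its arrays read 7.76, 6.96 and 8.14 against 8.10, 8.20 and 7.50, which overlapped, and the difference of 0.31 ± 0.19 was not called (adjusted p = 0.284). A second, dimmer probe set of Mrpl42 gave 0.51, 0.20, 0.71 and 0.61, with the same 3 comparisons called.

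At day 3 of 3-month rats, Mrps33, a mitochondria-specific small-subunit protein, read 6.52, 6.51 and 6.69 against 7.46, 7.15 and 7.38, a rise of 0.76 ± 0.15 (adjusted p = 0.000257). Mrps16, of bacterial descent, rose there by 0.74 ± 0.13 (adjusted p = 6.25e-05) and at 12 months and day 3 by 0.91 ± 0.13 (adjusted p = 2.46e-06). At 3 months and day 14, Mrpl48 read 6.26, 5.98 and 6.07 against 7.00, 6.73 and 6.76, a rise of 0.73 ± 0.13 (adjusted p = 8.79e-05). There Mrpl44, whose fold resembles a ribonuclease, rose by 0.68 ± 0.11 (adjusted p = 4.87e-05) and Mrpl13 by 0.62 ± 0.13 (adjusted p = 0.000842). These arrays of Mrpl48 and Mrpl44 did not overlap, whereas at 3 months and day 3 both genes' arrays overlapped, with changes of 0.30 and 0.37. Mrps12, a protein of the decoding centre, rose by 0.50, 0.83 and 0.45 at 3 months day 3 and at 12 months days 3 and 14 (adjusted p = 0.00361, 6.52e-06 and 0.0122), and its 0.17 at 3 months and day 14 was not called (adjusted p = 0.364).

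Genes at functional sites of the ribosome followed the same direction to different degrees. Mrpl10 and Mrpl12 belong to the stalk, which recruits translation factors. At 12 months and day 3 Mrpl12 read 5.73, 5.49 and 5.77 against 6.31, 6.27 and 6.67, a rise of 0.75 ± 0.14 (adjusted p = 9.62e-05). In the other 3 comparisons its changes of 0.28, 0.37 and 0.37 were not called (adjusted p = 0.175, 0.0548 and 0.0624). Mrpl10 rose by 0.44 at 3 months and day 3, 0.73 at 12 months and day 3 and 0.42 at 12 months and day 14 (adjusted p = 0.0141, 5.54e-05 and 0.0215).

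Mrpl22, Mrpl23 and Mrpl45 lie at the exit tunnel, where Mrpl45 holds the ribosome to the inner membrane. Mrpl23 read 7.83, 7.21 and 7.94 against 8.73, 8.22 and 8.40 at 3 months and day 3, a rise of 0.79 ± 0.14 (adjusted p = 0.000102). Mrpl22 was called in all 4 comparisons (0.54, 0.59, 0.92 and 0.47), with overlapping arrays at 3 months and day 14, where contralateral replicates ran from 5.43 to 6.48. Mrpl45 at day 3 read 6.30, 5.82 and 6.21 against 6.54, 6.06 and 6.11 at 3 months (0.12 ± 0.11, adjusted p = 0.53) and 6.62, 6.53 and 6.65 against 7.43, 7.19 and 7.29 at 12 months (0.71 ± 0.11, adjusted p = 1.53e-05). The difference of these hemisphere effects between the ages, 0.58 ± 0.16, was not called (adjusted p = 0.0598).

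The 3 Mrps18 paralogs are alternative relatives of 1 bacterial protein, and Mrps18a sits in the large subunit despite its name. Mrps18a rose by 0.56 ± 0.10 at 3 months and day 14 (adjusted p = 0.000197) and by 0.55 ± 0.10 at 12 months and day 3 (adjusted p = 0.000126). Mrps18c was called at 3 months and day 3 only (0.40, adjusted p = 0.0428), and Mrps18b in no comparison (-0.13, 0.26, 0.38 and 0.21). Mrps30, also a large-subunit protein, read 6.61, 6.54 and 6.71 against 6.43, 6.48 and 6.67 at 3 months and day 3 and 6.59, 6.25 and 6.55 against 7.25, 6.75 and 6.77 at day 14. The first difference, -0.09 ± 0.11, was not called (adjusted p = 0.662), the second was a rise of 0.46 ± 0.11 (adjusted p = 0.00379).

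By descent and subunit the counts of members called higher were as follows, in the order of 3 months days 3 and 14, then 12 months days 3 and 14. Of 24 large-subunit genes with bacterial homologues 13, 11, 19 and 4 were called, with medians of 0.31, 0.34, 0.55 and 0.16. Of 19 large-subunit genes specific to mitochondria 6, 9, 12 and 4 were called, with medians of 0.20, 0.31, 0.53 and 0.19. In the small subunit 6, 5, 9 and 6 of 15 with bacterial homologues and 3, 3, 6 and 2 of 10 without them were called. The small-subunit medians were 0.14, 0.18, 0.30 and 0.10 and 0.05, 0.27, 0.34 and 0.19. Mrps18a was counted with the large-subunit genes specific to mitochondria, and Mrps18b with the small-subunit genes without homologues, although both are relatives of a bacterial protein. Differences between these 4 sets were not tested.

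The 16 members called in no hemisphere comparison included Mrps27, a protein of the small subunit, whose changes were all below 0 (-0.12, -0.18, -0.17 and -0.28, lowest adjusted p = 0.0888). Its arrays of 12 months and day 14 read 5.71, 5.55 and 5.60 against 5.39, 5.40 and 5.23, without overlap. Mrps14 read 8.32, 8.40 and 8.58 against 8.17, 8.13 and 8.21 there (-0.26 ± 0.10, adjusted p = 0.0722). Mrpl46 read 7.01, 6.92 and 6.91 against 6.83, 6.72 and 6.50 at 3 months and day 3 (-0.26 ± 0.10, adjusted p = 0.0699), and its changes in the other comparisons were 0.14, 0.13 and 0.07. Mrps11, its head-to-head neighbour, changed by -0.14, 0.04, 0.01 and 0.10, none called. A second probe set of Mrps11 correlated at -0.214 with the first over the 30 arrays and was called higher at 12 months and day 3 (0.50, adjusted p = 0.0289), so the level of this gene is uncertain. The 2 probe sets of Mrpl40 and of Mrpl41 correlated at 0.918 and 0.989.

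In the 12-month ipsilateral samples of day 3 the mitoribosomal genes had their highest median in the series, in an order of groups that crosses the code numbers. The array medians of the 68 genes there were 7.44 to 7.55, against 7.02 to 7.14 on the contralateral arrays and 6.92 to 6.96 in sham. For 58 of the 68 genes this group had the highest mean of the 10. The next groups, in descending order of the median over the members, were the 12-month ipsilateral samples at day 14 (7.06 to 7.22) and the 12-month contralateral samples at day 3 (7.02 to 7.14), whose arrays overlapped. At the lower end stood the contralateral samples of 3-month rats at day 3 (6.49 to 6.61), with the lowest mean of the 10 groups for 36 genes. Counts of the highest and lowest group over all tested genes are not given here. Whether those of the members are particular to them was not tested. After joint quantile normalization this group remained the lowest (6.70 to 6.75), and the 12-month ipsilateral day-3 group remained the highest (7.27 to 7.36).

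**Figure D3:**
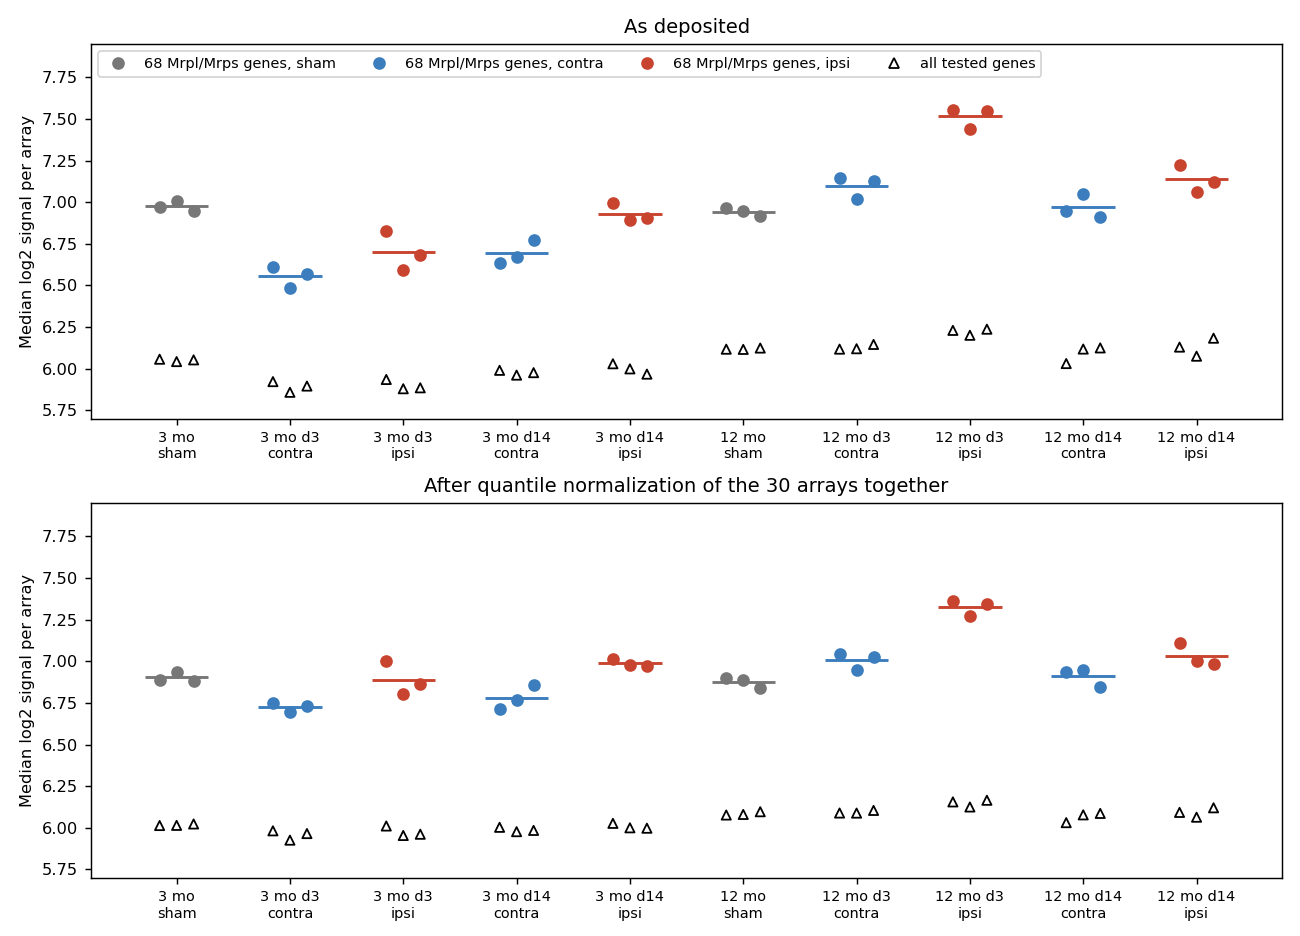
Median log2 signal of the 68 genes on each array (filled points, bars are means of 3 arrays) and of all tested genes (open triangles) in the 10 groups, as deposited (top) and after joint quantile normalization (bottom). Ipsilateral day-3 arrays of 12-month rats lie at 7.44 to 7.55 as deposited, above all others, and the medians of the 3-month stroke arrays are higher in the lower panel, where the ipsilateral ones of day 14 (6.97 to 7.02) lie above sham (6.88 to 6.94).

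Against sham at 12 months, 50 of 68 genes were called higher and 0 lower in the ipsilateral samples at day 3, where 22.7% of all genes were called higher and 14.3% lower. At day 14 it was 22 and 0 (11.9% and 8.09%), and 12 without ipsilateral replicate 1. Mrps15 read 5.79, 5.79 and 5.94 in sham and 7.21, 7.23 and 7.43 in the ipsilateral day-3 samples, a rise of 1.45 ± 0.12 (2.73-fold, adjusted p = 1.28e-10). Mrps16 rose there by 1.22 ± 0.13 (adjusted p = 7.21e-09) and Mrpl42 by 1.20 ± 0.19 (adjusted p = 9.49e-06). At day 14 Mrpl42 was 0.95 ± 0.19 above sham (adjusted p = 0.000453), Mrpl36 0.79 ± 0.13 (adjusted p = 3.94e-05) and Mrps15 0.67 ± 0.12 (adjusted p = 0.000152). These comparisons share their sham arrays, and the ipsilateral arrays are those of the hemisphere comparison.

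In the contralateral hemisphere at 12 months few differences from sham were called. At day 3 Mrpl14, a large-subunit protein, was the 1 member called (0.41 ± 0.10, adjusted p = 0.0228; 1.16% of all genes were called higher and 0.128% lower), and with any 1 of 5 libraries left out (the 3 sham, contralateral replicates 1 and 3) no member was called. At day 14 limma called 0 members and 0.00857% of all genes, with 4 members at an unadjusted p under 0.05.

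At 3 months the comparison with sham depended on how the arrays were scaled. Shares of all genes, here and below, are those of the values as deposited. Counts of members after rescaling therefore stand without a share of all genes beside them, and whether they differ from all genes was not tested. In the contralateral samples at day 3, 46 members were called lower and 1 higher as deposited (37.2% and 14.4% of all genes), and 25 lower and 3 higher after joint quantile normalization. The members' median was -0.41 as deposited and -0.21 after quantile normalization, and that of all genes was -0.10 as deposited. At day 14, 30 were called lower and 0 higher (28.4% and 10.4% of all genes), and 17 lower and 2 higher after quantile normalization. In the ipsilateral samples at day 3, 20 were called lower and 9 higher (35.9% and 20.9% of all genes), but 13 lower and 22 higher after quantile normalization, and the median turned from -0.11 to 0.10. At day 14 the split was 12 lower and 9 higher (23.4% and 11% of all genes) as deposited and 6 lower and 16 higher after quantile normalization. Centring each array on its median gave 25 lower and 6 higher at day 3 and 12 lower and 5 higher at day 14.

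Some members kept 1 direction against 3-month sham under both scalings. Mrps14, a small-subunit protein, read 8.64, 8.50 and 8.41 in sham, 7.44, 7.26 and 7.21 contralaterally and 7.32, 7.19 and 7.37 ipsilaterally at day 3. It fell by 1.22 on the log2 scale (adjusted p = 5.34e-10) in the contralateral and by 1.22 (adjusted p = 2.86e-11) in the ipsilateral samples, and the changes were -0.84 and -0.86 after quantile normalization. Mrps35 was lower contralaterally at day 3 (-1.09, adjusted p = 1.44e-08; -1.05 after quantile normalization), as was Mrpl42 (-1.07, adjusted p = 4.02e-05; -0.70). Contralateral falls at day 14 were largest for Mrps30 (-0.92, adjusted p = 1.39e-06; -0.76), Mrpl47 (-0.77, adjusted p = 0.000304; -0.86) and Mrpl22 (-0.76, adjusted p = 0.000387; -0.69). Ipsilaterally at day 3 the changes of Mrps31 and Mrpl47 were both -0.88 (adjusted p = 2.01e-08 and 2.12e-05), and -0.57 and -0.97 after quantile normalization.

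Mrpl54 was higher than sham in the injured hemisphere at 3 months, by 0.79 ± 0.11 at day 3 and 0.58 ± 0.11 at day 14 (adjusted p = 7.46e-07 and 0.000168; 1.06 and 0.69 after quantile normalization). Mrpl10 (0.50, adjusted p = 0.00158) and Mrpl38 (0.46, adjusted p = 0.00142) were also higher at day 3, and Mrpl36 (0.52, adjusted p = 0.00264) and Mrpl23 (0.43, adjusted p = 0.0178) at day 14. At day 14 Mrps14 (-0.72), Mrpl50 (-0.59) and Mrpl47 (-0.58) were lower (adjusted p = 1.71e-06, 0.00143 and 0.0039). Mrps11 was the 1 member called higher contralaterally at day 3 (0.52 ± 0.13, adjusted p = 0.00113), while Mrpl46 read 7.56, 7.48 and 7.56 in sham and 7.01, 6.92 and 6.91 there. The probe sets of Mrps11 disagreed, as given above, so its level is uncertain here too.

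From day 3 to day 14, 38 of the 68 genes fell in the injured hemisphere at 12 months and 0 rose (14.1% and 6.53% of all genes), and 27 and 0 after quantile normalization. Mrpl51, a large-subunit protein, fell by 0.82 on the log2 scale (adjusted p = 0.000936), Mrps15 by 0.78 (adjusted p = 2.26e-05) and Mrpl14 by 0.71 (adjusted p = 2.29e-06). Mrpl14 read 7.18, 7.10 and 7.13 at day 3 and 6.38, 6.48 and 6.43 at day 14, without overlap. In the contralateral hemisphere limma called 0 members (1.06% of all genes in either direction), with 4 at an unadjusted p under 0.05.

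At 3 months 19 members were called higher and 1 lower at day 14 than at day 3 in the injured hemisphere (22% and 7.51% of all genes), a share near that of all genes, and 10 higher and 7 lower after quantile normalization. The count of 20 became 9 without ipsilateral replicate 1 of day 14 and 13 without ipsilateral replicate 2 of day 3. Mrpl46 rose by 0.64 (adjusted p = 2.64e-05), Mrps14 by 0.51 (adjusted p = 0.000277) and Mrps31 by 0.50 (adjusted p = 0.00044), and Mrpl43 fell by 0.42 on the log2 scale (adjusted p = 0.0235). Contralaterally 8 were called higher and 1 lower (8.31% and 1.84% of all genes), again near those shares, and 5 and 4 after quantile normalization. These were led by Mrpl23 (0.77, adjusted p = 0.00109), Mrps14 (0.59, adjusted p = 0.000595) and Mrps25 (0.46, adjusted p = 0.0248), with Mrps18a lower (-0.35, adjusted p = 0.0307). That count of 9 became 2 and 4 without contralateral replicates 2 and 3 of day 3, and 5 without replicate 1 or replicate 3 of day 14.

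The change of the hemisphere effect itself from day 3 to day 14 was called for 4 members at 12 months, each smaller at day 14 (3.59% of all genes were called lower and 1.75% higher). The members' share was near that of all genes. Mrpl41, a mitochondria-specific large-subunit protein, read 7.94, 7.67 and 7.99 against 8.51, 8.41 and 8.39 at day 3 and 7.92, 8.03 and 7.90 against 7.94, 7.82 and 7.86 at day 14. Its hemisphere effect was 0.57 ± 0.10 at day 3 and -0.08 ± 0.10 at day 14, a difference of -0.65 ± 0.15 (adjusted p = 0.00504). The others were Mrpl35 (-0.46, adjusted p = 0.0125), Mrpl49 (-0.52, adjusted p = 0.0268) and Mrpl55 (-0.50, adjusted p = 0.0321). Without contralateral replicate 2 of day 3 the count was 1. It was 7 without ipsilateral replicate 2 of day 3, and 2 without ipsilateral replicate 1 or 3 of day 3, contralateral replicate 3 of day 14, or ipsilateral replicate 1 or 2 of day 14. Mrpl49 was the dimmest member, above the 30th percentile of its array on 24 of 30 arrays.

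At 3 months Mrps30 was the member whose hemisphere effect was called larger at day 14 than at day 3 (0.55 ± 0.16, adjusted p = 0.0474, with 2.57% of all genes called higher and 1.24% lower), again near the share of all genes. It was called in no fit without contralateral replicate 1 or 3 or ipsilateral replicate 1 or 2 of day 3, or without contralateral replicate 3 or ipsilateral replicate 1 of day 14, and 2 members were called without contralateral replicate 1 of day 14.

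The hemisphere effects at the 2 ages come from separate animals. Across genes, which are not independent replicates, Pearson's r was 0.771 on day 3 and 0.659 on day 14. On day 3, 26 genes were called at both ages, 92.9% of those called at 3 months and 56.5% of those called at 12 months. On day 14, 11 were called at both ages, 39.3% and 68.8%. The correlation and overlap over all tested genes are not given here, so whether these values are particular to the members was not tested. The difference between the ages was called by limma for 0 members on either day (1.58% and 0.00857% of all genes), with 17 members at an unadjusted p under 0.05 on day 3 and 7 on day 14. The percentages are for adjusted p, and whether the unadjusted counts differ from those of all genes was not tested. On day 3 the count was 2 without contralateral replicate 2 or ipsilateral replicate 1 at 3 months, and 1 without contralateral replicate 3 or ipsilateral replicate 2 at 12 months. With the animal as a block it was 2 as a random term and 1 as a fixed term. The median difference over the members was 0.19 on day 3 and -0.12 on day 14. In sham, 12 against 3 months gave Mrpl57 higher (0.39 ± 0.12, adjusted p = 0.0283) and Mrps31 lower (-0.31 ± 0.10, adjusted p = 0.0431), with 7.47% and 5.52% of all genes called, and here age and code number change together. Without 3-month sham replicate 2 or 3, or 12-month replicate 1 or 3, neither was called, and 1 was called without 12-month replicate 2.

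**Figure D4:**
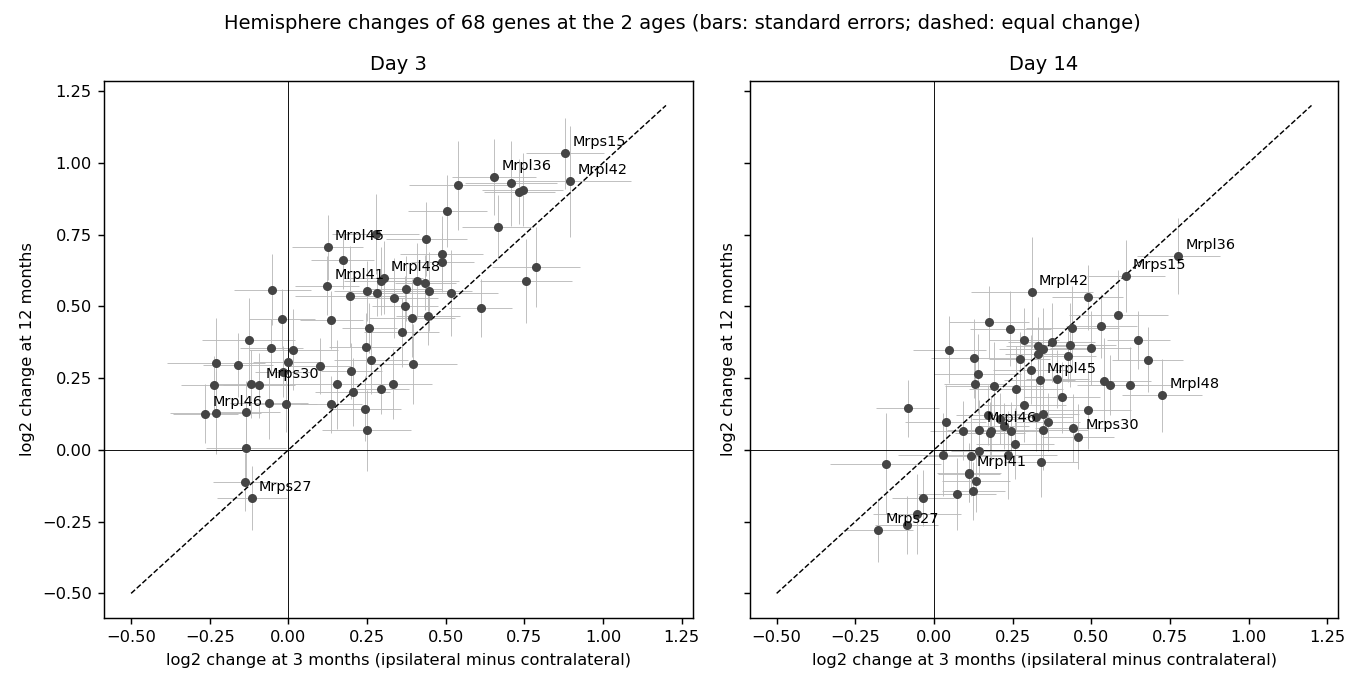
Hemisphere change (log2 units, ipsilateral minus contralateral) of the 68 genes at 3 months (x axis) and 12 months (y axis) at day 3 and day 14, with standard errors; the dashed line marks equal change. The points correlate at 0.771 and 0.659, and Mrpl45 and Mrpl41 lie above the line at day 3.

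The members moved together over the 10 groups. Pairs of members correlated over the 10 group means with a median r of 0.742, against 0.0332 for pairs of 1000 evenly spaced tested genes. Over the residuals of the 30 arrays around their group means the medians were 0.181 and 0.0245. These pairs share their arrays and their scaling. Mrpl45 was the most like the rest (mean r with the other members 0.778), followed by Mrpl21 (0.774) and Mrpl27 (0.773). Mrps11 (-0.597), Mrps2 (-0.25) and Mrpl38 (-0.01) were the least like them. The value of Mrps11 rests on a probe set that correlated at -0.214 with the gene's other one. The brightest probe sets were those of Mrpl52 (mean 9.67 over 30 arrays), Mrpl23 (8.65) and Mrps21 (8.46), and the dimmest those of Mrpl49 (4.52), Mrpl43 (4.84) and Mrpl47 (5.04). Signals of different probe sets are not on 1 scale per transcript. Mrpl52 varied from 9.31 to 9.98 over all arrays and was called higher in the injured hemisphere in 3 comparisons (0.30, 0.43 and 0.33, not at 12 months and day 3).

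Mitoribosomal proteins with other names gave 1, 4, 3 and 1 of 5 called higher between the hemispheres. Aurkaip1, of the small subunit, rose by 0.37 and 0.30 at 3 months on days 3 and 14 and by 0.36 at 12 months and day 3 (adjusted p = 0.00438, 0.0238 and 0.00346). Chchd1, also of the small subunit, rose by 0.46 at 3 months and day 14 and by 0.45 at 12 months and day 3 (adjusted p = 0.00344 and 0.00292), and Gadd45gip1, of the large subunit, by 0.33 and 0.31 (adjusted p = 0.0125 and 0.0137). Ptcd3, an RNA-binding small-subunit protein, rose at 3 months and day 14 (0.57, adjusted p = 0.0028), and Dap3, a GTP-binding protein of the small subunit, at 12 months and day 14 (0.29, adjusted p = 0.0225).

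Other genes of mitochondrial translation are given in the same order, beside 11.5%, 13.2%, 18.7% and 10.9% of all genes called higher and 8.95%, 7.09%, 10% and 5.94% lower. Of 11 translation factors and messenger RNA binders, 1, 6, 6 and 4 were called higher and none lower. Slirp rose by 0.72, 0.64, 1.08 and 0.49 (adjusted p at most 0.00894), and its partner Lrpprc by 0.52, 0.51 and 0.53 outside 3 months and day 3. Lrpprc and Slirp together stabilise mitochondrial messenger RNAs. Mtif2, an initiation factor, rose at 3 months and day 14 (0.55, adjusted p = 0.00086). Of 20 assembly factors 0, 0, 3 and 1 were called higher and 1, 1, 1 and 0 lower: Nsun4, which methylates mitochondrial ribosomal RNA, was lower in the first 3 (-0.35, -0.29 and -0.33), and Fastkd2, an assembly factor of the large subunit, was higher at 12 months (0.39 and 0.40). Of 13 genes for charging mitochondrial transfer RNAs (synthetases, and the amidotransferase subunits Qrsl1 and Gatc) 0, 1, 1 and 1 were called higher and none lower.

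Of 9 genes of mitochondrial DNA transcription and upkeep none was called higher and 1 lower in each comparison. Polg2, the accessory subunit of the mitochondrial DNA polymerase, was lower at 3 months and day 3 (-0.60) and at 12 months on both days (-0.58 and -0.49), and Polrmt, the mitochondrial RNA polymerase, at 3 months and day 14 (-0.29). Of 7 regulators of mitochondrial genes 0, 2, 2 and 1 were called higher and 2, 0, 1 and 1 lower. Ppargc1b, a transcriptional coactivator, rose outside 3 months and day 3 (0.50, 0.55 and 0.86), and Myc, a growth regulator, fell outside 3 months and day 14 (-0.41, -0.38 and -0.54). Pprc1, a relative of Ppargc1b, was lower at 3 months and day 3 (-0.42, adjusted p = 0.00454), and Gabpa, an ETS factor, was higher at 3 months and day 14 (0.31, adjusted p = 0.0446). Nuclear subunits of the respiratory chain and ATP synthase were called higher for 64, 63, 69 and 50 of 72, and cytosolic ribosomal proteins for 62, 65, 57 and 38 of 71. Their medians were 0.56, 0.54, 0.67 and 0.37 and 0.41, 0.39, 0.33 and 0.24, against 0.25, 0.28, 0.46 and 0.17 for the mitoribosomal genes. Differences between these lists were not tested.

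**Figure D5:**
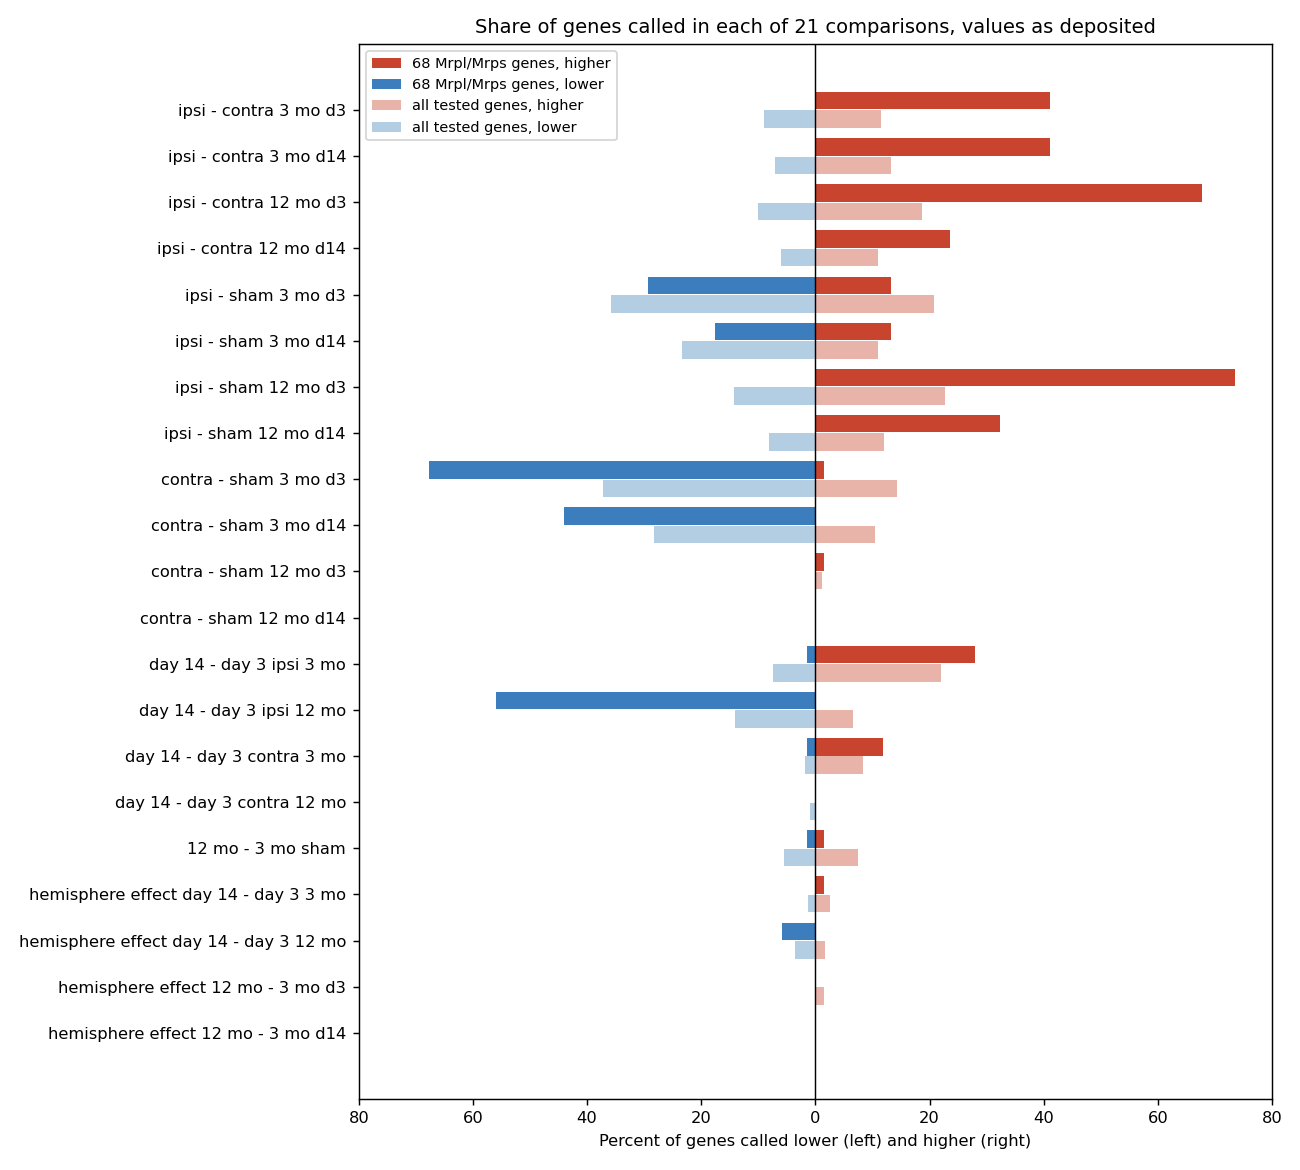
Percent of the 68 genes (dark bars) and of all tested genes (pale bars) called lower (left) and higher (right) at an adjusted p under 0.05 in each of the 21 comparisons, values as deposited (contra, contralateral; ipsi, ipsilateral; mo, months; d, day). Members exceed all genes on the higher side in the 4 hemisphere comparisons and on the lower side in the contralateral comparisons with sham at 3 months.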

How the data were processed

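The authors summarised 30 Affymetrix Rat Gene 1.0 ST arrays with Affymetrix Expression Console and RMA, per the submitters' processing notes, and deposited log2 values of 29214 probe sets. Versions are not given in the sources used here. The values were not rescaled. Probe sets with 1 gene symbol in the platform annotation (15310) were used. Those above the 30th percentile of their array on at least 3 arrays were kept, with 1 probe set per gene by highest mean.

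Group means were fitted over all 30 arrays with limma 3.58.1 (R 4.3.3; 20 residual and 8.80 prior degrees of freedom) in 21 comparisons, without an animal term, and the steps were tested on simulated data. The sample codes pair the hemispheres of 12 animals. The deviations of paired arrays correlated at -0.0789 to 0.211. The number of arrays limits the precision. Alternatives were joint quantile normalization, median centring, other filters and probe-set rules, fewer arrays in the fit, an animal block and leaving out each replicate.

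The members and lists were chosen with earlier results of these data known. Genes named are the 6 largest called rises and falls per hemisphere comparison, the 3 largest per other comparison, the brightest and dimmest members, members called in all hemisphere comparisons, and small groups by role. Mrps27, Mrpl21, Mrpl27 and Mrps2, and the pair of Mrpl46 and Mrps11 as neighbours, were named after their values were seen.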

Additional observations from a re-analysis of the deposited data

Results flagged for a closer look

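A difference of the hemisphere effect between the days passed the test for 5 of the 68 members and for 1 mitoribosomal gene with another name (limma, adjusted p under 0.05). Of all genes, 3.59% were called lower and 1.75% higher at 12 months, and 2.57% higher and 1.24% lower at 3 months. The members' shares lie near those of all genes. With a replicate left out, the count of members ran from 1 to 7 at 12 months and from 0 to 2 at 3 months. At 12 months the effect was smaller at day 14 than at day 3 for Mrpl41 (-0.651, adjusted p = 0.00504), Mrpl49 (-0.515, adjusted p = 0.0268), Mrpl55 (-0.5, adjusted p = 0.0321) and Mrpl35 (-0.464, adjusted p = 0.0125). At 3 months it was larger at day 14 for Mrps30 (0.552, adjusted p = 0.0474) and Ptcd3 (0.672, adjusted p = 0.0444). Mrpl55 was higher on the injured side in 3 of 3 animals at day 3 and lower in 3 of 3 at day 14. Mrps30 was lower in 3 of 3 at day 3 and higher in 3 of 3 at day 14.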

How the results depend on the processing

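The changes of 28 of the named members between the hemispheres were followed under the alternatives run. The other named members were not part of this check, nor were comparisons with sham, between days or between ages. Among the results followed, no called change reversed, but 32 no longer passed the threshold and 38 newly did (1046 kept their side). With a replicate left out these were 66, 11 and 595. Of the 32, 12 fell away when only the arrays compared were fitted and 7 after joint quantile normalization. Of 194 counts of called members, 176 stayed within 1.5 times the count given. Both directions were counted together. The 176 include ipsilateral against 3-month sham after joint quantile normalization, where the split between higher and lower turned. Joint quantile normalization left 28 and 19 members called in the contralateral comparisons with 3-month sham at days 3 and 14. Median centring gave 1 for age in sham and 1 for the age difference of the hemisphere effect on day 3. Without the filter on dim probe sets, the change of the hemisphere effect between days at 3 months was called for 0. A fit of only the arrays compared gave 17 between hemispheres at 3 months and day 14, 2 for contralateral against sham at 12 months and day 3, 12 and 2 between days at 3 months (ipsilateral and contralateral), 1 for age in sham and 0 for the change of the hemisphere effect between days at 3 months. A fit of only the arrays of an age gave 13 for ipsilateral against sham at 3 months and day 14, 2 between days contralaterally at 3 months, 2 for contralateral against sham at 12 months and day 3, and 0 and 8 for the change of the hemisphere effect between days at 3 and 12 months. With the animal as a replicate block (pairing from the sample codes; correlation 0.0719), the hemisphere counts were 29, 30, 48 and 19 as a random term and 28, 28, 47 and 17 as a fixed term, and the age difference on day 3 became 2 and 1. No other count moved by over 1.5 times under the block. The cause of these shifts was not tested. Leaving out each replicate gave 19 to 27, 18 to 25, 35 to 44 and 9 to 12 members between hemispheres (3 months days 3 and 14, then 12 months). Ipsilateral against sham it gave 27 to 29, 14 to 17, 45 to 49 and 12 to 22, and contralateral against sham 40 to 47, 27 to 31, 0 to 2 and 0 to 0. Between days the ranges were 9 to 23 and 26 to 34 ipsilaterally and 2 to 9 and 0 to 0 contralaterally, at 3 and 12 months. They were 0 to 2 for age in sham, 0 to 2 and 1 to 7 for the hemisphere effect between days, and 0 to 2 and 0 to 0 between ages. A group left with 2 arrays shares the spread of all groups.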
